A study of Mus musculus with 8 samples.

Results

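The Zscan4 genes encode a family of zinc finger proteins with a SCAN domain, and the members described here are the rows of the deposited gene table whose name begins with Zscan4 or Tcstv. This rule found 4 of 18094 genes, namely Zscan4b, Zscan4c, Zscan4d and Zscan4f, and 0 Tcstv genes. RNA-seq was performed on mouse embryonic stem cells (mESCs) on day 0 and on embryoid bodies (EBs), the cell aggregates in which differentiation starts, on day 4, with 2 WT and 2 CTCF-K20R libraries for each day. All cells came from E14Tg2A, a male mESC line. WT cells are wild type for Ctcf, and CTCF-K20R cells carry an edit of the chromatin organizer CTCF made by CRISPR/Cas9, in which arginine takes the place of lysine 20. The edited cells were derived from selected colonies, and the labels do not tell which colony gave which library, so the genotype cannot be told apart from the clone. On day 0 the mESCs of both genotypes were kept on mitomycin C-inactivated embryo fibroblasts with LIF and the 2i inhibitors, and the EBs of both genotypes were grown as hanging drops in serum medium that lacked LIF. The libraries were made from mRNA captured on beads. The family was chosen by its day 4 values, CTCF-K20R against WT EBs, so the day 4 values of its members are given as a description without a test, while day 0 was tested.

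Zscan4 is transcribed in the mouse embryo at the 2-cell stage, together with the Tcstv genes, the eIF1A-like genes and other genes of the first wave of embryonic transcription. In mESC cultures it is off in most cells and switches on for a short time in a small fraction of them, which are called 2-cell-like cells. The protein is known for its part in the lengthening of telomeres by recombination, and the transcription factor Dux, with Dppa2 and Dppa4 upstream of it, is known as an activator of this state.

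The annotation (GENCODE vM21, GRCm38) places 9 Zscan4 genes side by side on chr7 over 820 kb, from 10794242 to 11614112. In chromosomal order they are Zscan4a, Zscan4b, Zscan4c, Zscan4-ps1, Zscan4d, Zscan4e, Zscan4f, Zscan4-ps2 and Zscan4-ps3, and 4 of them had a row in the table. Zscan4c (ENSMUSG00000054272) lies at chr7:11005745-11010547 and Zscan4f (ENSMUSG00000070828) at chr7:11397915-11402318, both on the plus strand. Zscan4b (ENSMUSG00000095339) lies at chr7:10900740-10905050 and Zscan4d (ENSMUSG00000090714) at chr7:11161374-11166159, both on the minus strand. The 2 annotated Tcstv genes, Tcstv1 and Tcstv3, lie on chr13 and had no row, so no Tcstv level is given. The promoters of the 4 genes are near-copies of each other, as a stretch of 122 bases shows, and each stretch is therefore printed from the RefSeq promoter table (GRCm38.p6) 5′ to 3′ on the strand of its gene. The first block of capitals marks a match, read on the opposite strand, to TGATT and ATCA parted by any 2 bases (called the TGATT pattern below), the kind of pattern that Dux proteins are known to bind, and the second block marks TATAAAA. The stretches lie at chr7:11005591-11005712 (plus strand) for Zscan4c, at chr7:11397784-11397905 (plus strand) for Zscan4f, at chr7:11166192-11166313 (minus strand) for Zscan4d and at chr7:10905060-10905181 (minus strand) for Zscan4b.
Zscan4c: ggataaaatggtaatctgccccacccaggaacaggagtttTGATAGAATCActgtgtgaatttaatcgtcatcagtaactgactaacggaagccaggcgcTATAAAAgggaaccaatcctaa
Zscan4f: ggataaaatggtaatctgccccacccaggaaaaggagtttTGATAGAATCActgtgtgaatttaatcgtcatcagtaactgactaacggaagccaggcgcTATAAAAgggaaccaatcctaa
Zscan4d: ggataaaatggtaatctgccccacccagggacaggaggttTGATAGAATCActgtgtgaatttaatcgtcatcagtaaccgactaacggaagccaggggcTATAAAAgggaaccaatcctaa
Zscan4b: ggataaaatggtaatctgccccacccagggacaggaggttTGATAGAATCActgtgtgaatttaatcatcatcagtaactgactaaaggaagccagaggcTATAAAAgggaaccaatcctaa

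Counted from base 1 of the Zscan4c stretch, the Zscan4f stretch differed by C32A alone. The Zscan4d stretch differed from that of Zscan4c by A30G, T38G, T80C and C98G, and the Zscan4b stretch by A30G, T38G, G68A, C87A, G97A and C98G. None of these substitutions fell in the capitals. The TGATT pattern started 60 bases before TATAAAA in all 4 stretches, and it lay 114 (Zscan4c), 91 (Zscan4f), 125 (Zscan4d) and 91 (Zscan4b) bases before the RefSeq start of the gene. Both patterns were searched on both strands of 32851 promoters, each from 250 bases before to 50 bases after a start, and they do not overlap. The TGATT pattern was present in 68 promoters (0.207%) and TATAAAA in 1801 (5.48%). A core of the CTCF pattern, CCNCNAG followed after any 2 bases by GGC, was present in 800 promoters (2.44%) and in 0 of the 4 Zscan4 promoters. The Zscan4 promoters held 4 (Zscan4c), 3 (Zscan4f), 3 (Zscan4d) and 1 (Zscan4b) CG pairs, against a median of 7 over all promoters. The TGATT pattern was chosen with these promoters in view, and a match is a description of the letters and not of a bound site.

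The transcripts were as alike as the promoters. Between pairs of the 4 genes, 96.63% to 99.61% of aligned transcript bases were identical, and Zscan4c and Zscan4f formed the closest pair. Reads can be assigned to a gene only where its sequence differs from the others, so the words of 31 bases that occur in no other annotated gene were counted. They made up 35.0% of the words of Zscan4d, 8.46% of Zscan4c, 8.28% of Zscan4f and 4.77% of Zscan4b. Zscan4b shared 90.6% of its words with Zscan4e, and Zscan4f shared 82.9% with Zscan4-ps2 and 80.4% with Zscan4c. Zscan4e and Zscan4-ps2 are not among the rows. The split of reads among the 4 genes is thus uncertain, least so for Zscan4d, and the sum over the 4 genes is given beside each gene.

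**Figure D1:**
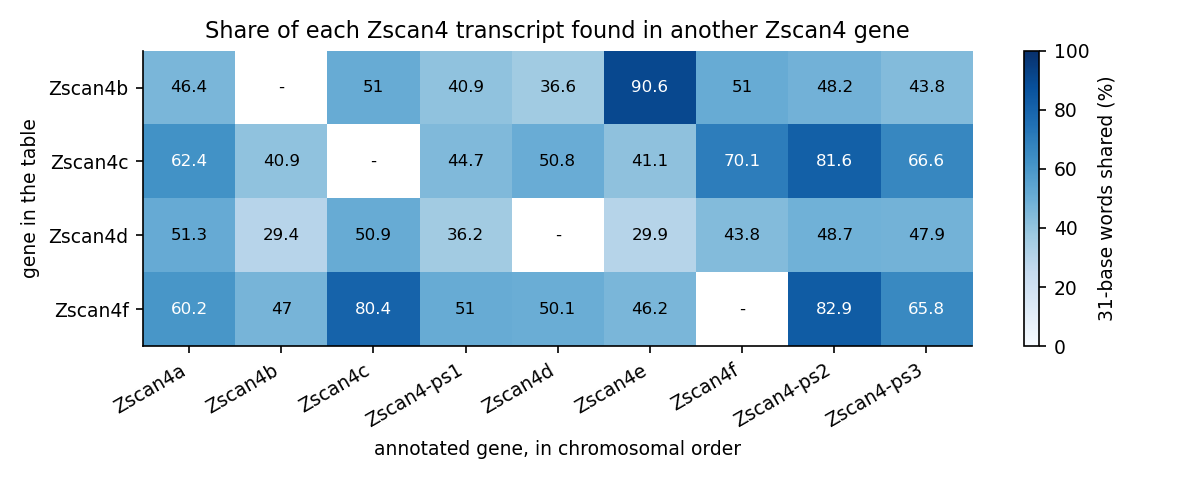
Share of the 31-base words of each Zscan4 gene in the table (vertical axis) that occur in each annotated Zscan4 gene (horizontal axis, in chromosomal order), in percent. The darkest cell is Zscan4b against Zscan4e (90.6%), and the row of Zscan4d is the palest.

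The 8 libraries summed to 19412659 to 21311513 normalized counts, and 3 reads, taken as the limit of detection, were worth 2.43 to 3.44 normalized counts. Such limits, and the intervals below, cover counting error only. The reads carry no molecular identifiers, and the uncertain split of reads among the Zscan4 genes is not covered. The worth of a read was taken as equal for all genes of a library, so the read numbers given below are approximate. Set against independently drawn reads, the squared differences within the WT pairs averaged 0.313 (mESCs) and 0.278 (EBs) of the sampling noise, and those within the CTCF-K20R pairs 4.00 and 4.36. Each WT pair thus varied less than sampling noise allows for and was counted as 1 sample, so the error of each test comes from the CTCF-K20R pairs. The defining mESC markers were present on day 0: the 15 markers summed to 158705 to 158847 in the WT libraries and to 163073 to 167262 in the CTCF-K20R libraries. The 10 markers of fibroblasts, which were the feeder cells, summed to 510 to 521 and to 156 to 171 normalized counts in the same libraries, a difference carried by Thy1 (465.4 and 458.5 in WT, 104.2 and 103.3 in CTCF-K20R). The other 9 summed to 51.4 to 55.8 and to 52.4 to 67.0.

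Zscan4 transcripts were low in WT mESCs and high in CTCF-K20R mESCs before differentiation. The sum of the 4 genes was 18.8 and 17.5 normalized counts in the WT mESC libraries and 214.1 and 250.4 in the CTCF-K20R mESC libraries. The CTCF-K20R mean of 232.3 ± 25.7 (SD, n = 2) was 12.8-fold the WT mean of 18.2 (n = 1). In bulk RNA, a larger share of cells that express Zscan4 and more Zscan4 RNA per cell cannot be told apart.

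All 4 genes were upregulated on day 0, each with both CTCF-K20R libraries above both WT libraries. Among the 15767 genes tested, 188 (1.19%) were upregulated on day 0, with both a log2 fold change over 1 and an adjusted p below 0.05, 2.6% were downregulated, and 37.6% had both CTCF-K20R libraries above both WT libraries. The Zscan4 genes passed the filter on low values (a mean of at least 10 over the 8 libraries) only through their CTCF-K20R libraries, since their WT means were 0 to 8.66. Of the 262 genes tested with a WT mean under 10, 25 (9.54%) were upregulated on day 0. The count of 4 is therefore a description. The p-value of each gene below is subject to the same filter, and its error pools the day 0 pair with the day 4 CTCF-K20R pair that chose the family.

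Zscan4f, the member with the highest level per kb of transcript, was the only one of the 4 detected above 3 reads in WT cells. Its normalized counts were 17.7 and 14.7 in WT mESCs and 80.1 and 141.2 in CTCF-K20R mESCs. The CTCF-K20R libraries were 6.84-fold higher in the mean, and they differed from each other by more than the whole WT level. The log2 fold change, on the scale log2(value + 1) used throughout, was 2.64 (SE 0.469, adjusted p = 0.021 by limma, Benjamini-Hochberg over all genes).

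Zscan4c was listed at 0 and 1.90 normalized counts in WT mESCs, both under the limit, and at 66.7 and 59.5 in CTCF-K20R mESCs. The ratio of the means was 66.5, with an exact 95% counting interval of 10.7 to 2420 set by about 1 WT read. Both CTCF-K20R libraries lay within a narrow range, far above WT. The log2 fold change of Zscan4c was 5.04 (SE 0.388, adjusted p = 0.00212, limma with Benjamini-Hochberg adjustment).

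Zscan4d, whose transcript holds the largest share of words of its own, was listed at 0 in both WT mESC libraries and at 31.8 and 34.3 in the CTCF-K20R mESC libraries. It was at least 9.73-fold higher in CTCF-K20R mESCs, taking 3 reads of the WT library with the higher limit. Here the groups were separate and the replicates close. Its fitted log2 fold change was 5.09 (SE 0.463, adjusted p = 0.00313, limma with Benjamini-Hochberg adjustment), a value that depends on the pseudocount.

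Zscan4b was listed at 1.14 and 0.949 in WT mESCs, under the limit, and at 35.5 and 15.4 in CTCF-K20R mESCs. It had the widest relative spread of the 4 genes between the CTCF-K20R mESC libraries. The ratio of the means was 24.4, with an exact 95% counting interval of 4.21 to 992. The log2 fold change of Zscan4b was 3.58 (SE 0.606, adjusted p = 0.0186, limma with Benjamini-Hochberg adjustment).

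Without CTCF-K20R EB replicate 1, or without replicate 2, limma called 0 Zscan4 genes and 0 genes of any kind on day 0, although 4500 and 4507 genes, the 4 Zscan4 genes among them, had an unadjusted p under 0.05. Without CTCF-K20R mESC replicate 1, 2 of the 4 Zscan4 genes were called. With the day 0 libraries alone, which leaves the day 4 pair out of the error, limma called Zscan4c and Zscan4d (adjusted p = 0.0463 for both) and not Zscan4b (0.0961) or Zscan4f (0.098).

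**Figure D2:**
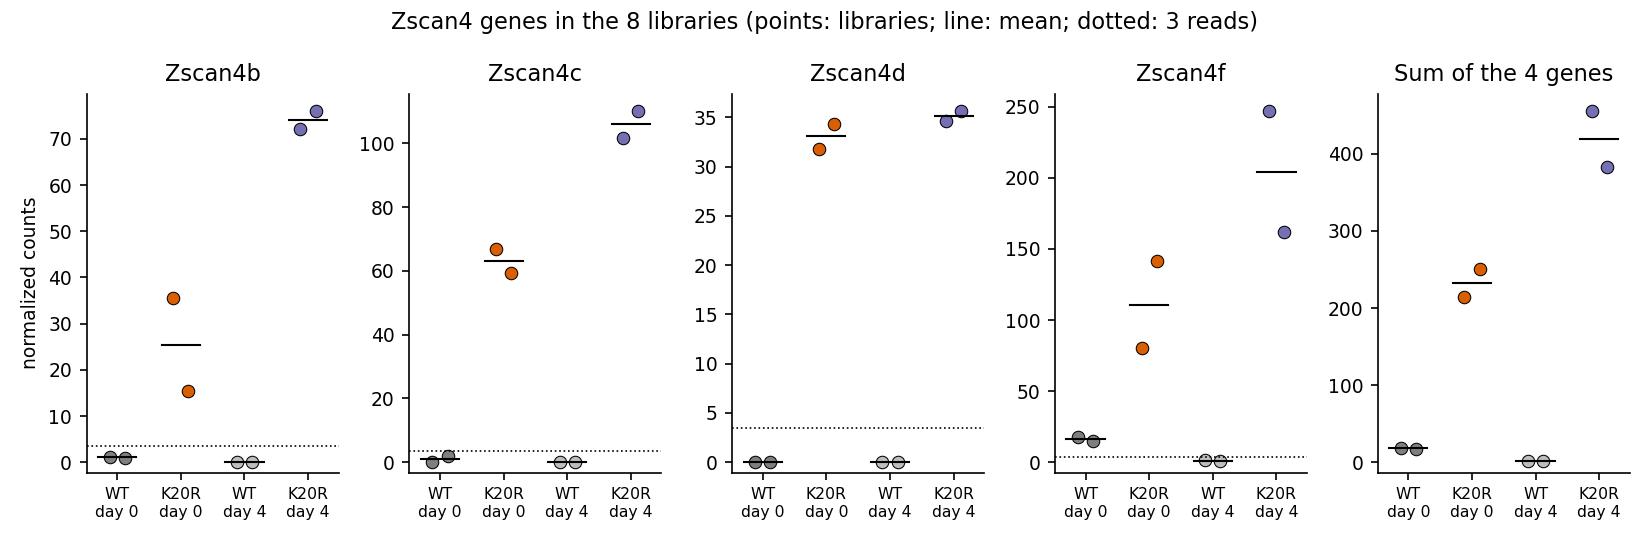
Normalized counts (vertical axes, linear, each with its own scale) of the 4 Zscan4 genes and of their sum in WT and CTCF-K20R mESCs (day 0) and EBs (day 4). Points are libraries, the line is their mean and the dotted line is the highest limit of detection of any library (3.44). The CTCF-K20R points lie above the WT points in every panel on both days, and Zscan4d is the gene with the smallest step from day 0 to day 4.

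On day 4 after differentiation the family was near 0 in WT EBs and high in CTCF-K20R EBs. The 4 genes summed to 1.25 and 1.06 normalized counts in WT EBs, compared with 455.6 and 383.6 in CTCF-K20R EBs. Zscan4f alone was above 0 in WT EBs, under the limit in both libraries. These are the values for which the family was chosen, so nothing is read from their size.

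In CTCF-K20R EBs, Zscan4f was at 247.1 and 161.8 normalized counts, against 1.25 and 1.06 in WT EBs. The ratio of its means was 177, an uncertain value that is set by about 1 WT read. Zscan4c was at 101.7 and 110.1 in CTCF-K20R EBs and at 0 in both WT EB libraries, at least 36.8-fold higher. These are the 2 genes with the closest sequences.

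Zscan4b was at 72.2 and 76.0 normalized counts in CTCF-K20R EBs and at 0 in both WT EB libraries, at least 25.8-fold higher. Zscan4d was at 34.6 and 35.6 and at 0, at least 12.2-fold higher. The log2 differences between CTCF-K20R and WT EBs were 6.23 for Zscan4b, 6.74 for Zscan4c, 5.18 for Zscan4d and 6.54 for Zscan4f, with 6.89% of all genes tested upregulated and 8.65% downregulated on day 4. These values are set by the pseudocount where WT is at 0, and they are no bounds. At a pseudocount of 5 they were 3.98, 4.47, 3.01 and 5.06 in the same order, and at 0.1 they were 9.54, 10.05, 8.46 and 7.32.

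The 4 genes differed in their step between the days within CTCF-K20R cells. The mean of Zscan4b in CTCF-K20R EBs was 2.91 times that in CTCF-K20R mESCs, against 1.85 for Zscan4f, 1.68 for Zscan4c and 1.06 for Zscan4d. The sum was 1.81 times as high, from 232.3 ± 25.7 to 419.6 ± 51.0 (SD, n = 2). In WT cells it was 1.152 in EBs, about 1 read and under the limit, against 18.2 in mESCs. The ratio of 15.8 is uncertain, since it is set by that 1 read and rests on 1 sample on each day. No test was made of these steps, because the day 4 libraries chose the family.

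Levels were compared between genes per kb of the longest annotated transcript (1829 bases for Zscan4f, 2276 for Zscan4c, 2272 for Zscan4d and 1779 for Zscan4b). In CTCF-K20R mESCs the order was Zscan4f (60.5 ± 23.6 normalized counts per kb), Zscan4c (27.7 ± 2.26), Zscan4d (14.6 ± 0.78) and Zscan4b (14.3 ± 7.97), each as the mean and SD of 2 libraries. Zscan4d and Zscan4b did not differ there beyond their spread, and the other neighbours differed by more than the SD of either gene. In CTCF-K20R EBs the order was Zscan4f (112 ± 33.0), Zscan4c (46.5 ± 2.62), Zscan4b (41.7 ± 1.52) and Zscan4d (15.5 ± 0.311), and each pair of neighbours differed there by more than the SD of either gene. Zscan4f made up 89.0% of the sum in WT mESCs and, in CTCF-K20R cells, 47.6% on day 0 and 48.7% on day 4, and Zscan4b went from 10.95% to 17.7% of the sum between those days while Zscan4d went from 14.2% to 8.37%. The order is that of the reads as they were split among near-identical genes.

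Other genes of the 2-cell-like state were taken from a list of 36, of which 11 were in the table and 8 were tested. Of these 8 genes, 1 was upregulated on day 0 and 2 on day 4 (1.19% and 6.89% of all genes tested), and 0 were downregulated. The medians of their log2 fold changes were 0.91 and 1.28, against −0.0118 and 0.00869 over all genes. Usp17le, Usp17lc, Sp110 and Tmem92 passed the filter on low values only through their CTCF-K20R libraries. The filter thus favours higher medians, which are given as a description, and the p-values of Usp17le below are subject to it too. Usp17le, a gene of the Dub family of deubiquitinating enzymes, was at 0 and 0.946 normalized counts in WT mESCs and at 12.9 and 17.6 in CTCF-K20R mESCs. Its log2 fold change was 3.45 on day 0 (adjusted p = 0.0138) and 3.73 on day 4 (adjusted p = 0.0036, both limma with Benjamini-Hochberg adjustment). Usp17la was upregulated on day 4, at a log2 fold change of 1.62 (adjusted p = 0.0388, limma), a call lost under 9 of 16 other settings, the replicate block among them (adjusted p = 0.0585). Both CTCF-K20R libraries were above both WT libraries for 8 of the 11 genes on day 0 and for 9 on day 4, against 37.6% and 43.3% of all genes tested. Obox3 and Trim43c, other genes of early embryos, had log2 fold changes of −0.66 and −0.96 on day 0, which did not pass the test.

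The eIF1A-like genes resemble the translation initiation factor Eif1ax and lie in a cluster on chr12. Of the list of 18, 6 were in the table, of which 5 aligned to Eif1ax over 530 to 668 bases at 78.4% to 80.4% identity. Of these 5, 2 were tested and both were upregulated on each day, against 1.19% and 6.89% of all genes tested. Both passed the filter on low values only through their CTCF-K20R libraries, so this count is a description. Of the genes tested with a WT mean under 10, 9.54% were upregulated on day 0. Both CTCF-K20R libraries were above both WT libraries for 4 of the 5 genes on day 0 and for 5 on day 4, against 37.6% and 43.3% of all genes tested. The exception, Gm21319, was at 12.45 and 11.35 in WT mESCs and at 8.59 and 6.60 in CTCF-K20R mESCs. Gm4027 was at 5.69 and 4.76 normalized counts in WT mESCs, 49.6 and 44.3 after the edit (CTCF-K20R mESCs), 0 in both WT EB samples and 27.8 and 29.4 in the edited EBs. Its log2 fold changes were 2.94 on day 0 (adjusted p = 0.0123) and 4.89 on day 4 (adjusted p = 0.000717, limma with Benjamini-Hochberg adjustment). Gm5662 had log2 fold changes of 2.89 (adjusted p = 0.0279) and 3.95 (adjusted p = 0.00397) by the same test. Both genes share most of their words with other genes, 95.5% for Gm4027 and 89.1% for Gm5662.

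The sixth row, named Gm6763, did not belong with them. Its identifier, ENSMUSG00000091779, is that of a gene on chr10 which the annotation calls Gm21293, only 86 of its bases aligned to Eif1ax, and 98.5% of its words are found in other genes. It was at 14.1 and 13.5 normalized counts in WT mESCs, 121.9 and 126.8 in the CTCF-K20R mESC libraries, 0 in both WT EB samples and 340.1 and 228.3 in the edited EBs. This order of the 4 groups was that of the Zscan4 sum. The log2 fold changes of Gm6763 were 3.08 on day 0 (adjusted p = 0.00614) and 8.13 on day 4 (adjusted p = 9.17e-05, limma with Benjamini-Hochberg adjustment). Gm6763, too, passed the filter on low values only through its CTCF-K20R libraries. The day 0 calls of Gm4027, Gm5662, Gm6763 and Usp17le were, like those of the Zscan4 genes, lost without either CTCF-K20R EB library. With the day 0 libraries alone they were lost as well, whereas those of Zscan4c and Zscan4d stayed. The calls of Gm4027, Gm5662 and Usp17le were also lost without either CTCF-K20R mESC library, and those of Gm5662, Gm6763 and Usp17le with eBayes without trend.

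**Figure D3:**
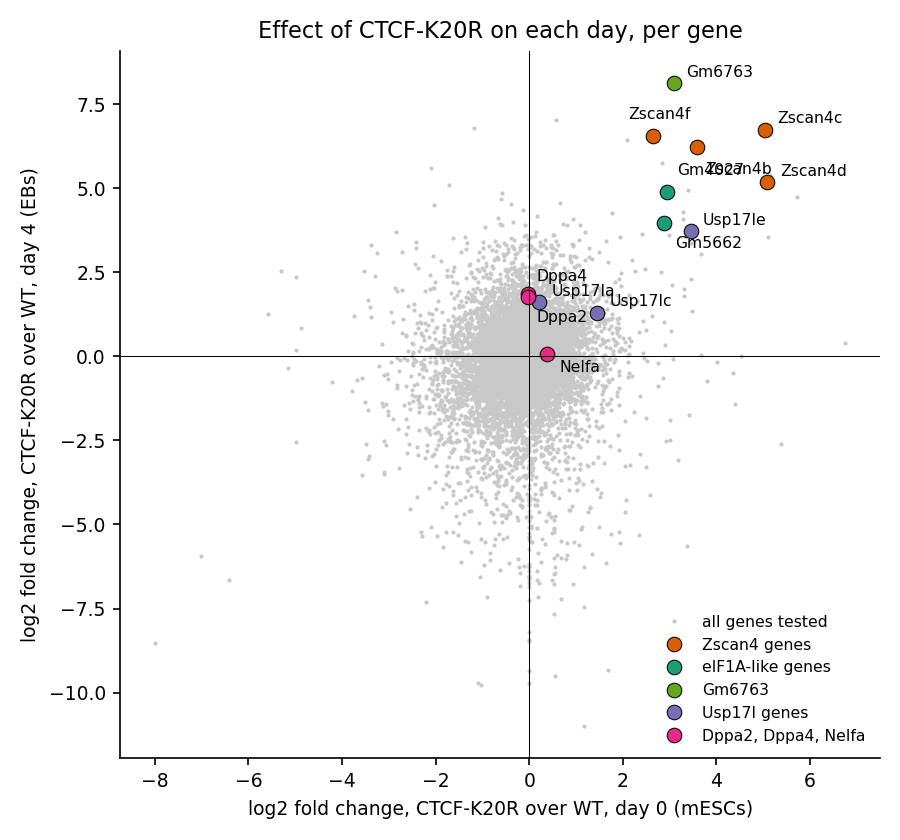
Log2 fold change of CTCF-K20R over WT on day 0 (horizontal axis) and on day 4 (vertical axis), on the scale log2(value + 1), for the 15767 genes tested (grey) with the Zscan4 genes and the other genes named in colour. The Zscan4 genes lie at 2.64 to 5.09 on day 0 and at 5.18 to 6.74 on day 4, whereas Dppa2 and Dppa4 lie near 0 on day 0 and at 1.78 and 1.86 on day 4.

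Dux had no row in the table, and of the 5 other activators listed 0 were called by limma on day 0, where 2 had an unadjusted p under 0.05. Of all 15767 genes tested, 4962 had such a p on day 0. The shares of all genes upregulated and downregulated were 1.19% and 2.6% on day 0 and 6.89% and 8.65% on day 4. Dppa2 was at 1373 and 1360 normalized counts in WT mESCs and at 1367 and 1335 in CTCF-K20R mESCs, a log2 fold change of −0.02 (adjusted p = 0.926, limma). Dppa4 had a log2 fold change of −0.03 (adjusted p = 0.823, limma) on day 0. Both genes, whose proteins bind chromatin in pluripotent cells, were upregulated on day 4, with log2 fold changes of 1.78 and 1.86. In WT EBs Dppa2 was at 178.4 and 177.6 normalized counts and in CTCF-K20R EBs at 639.1 and 587.1, below its level in mESCs of either genotype. Tbx3 was downregulated on day 4, with a log2 fold change of −1.88. Nelfa, a subunit of the NELF complex, had log2 fold changes of 0.37 (adjusted p = 0.0138, limma) and 0.08 on day 0 and day 4, under the limit of 1.

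Of 23 repressors of the Zscan4 state, 0 were called by limma on day 0 and 1 was downregulated on day 4, at medians of −0.02 and 0.12. The one called was Ring1, a Polycomb subunit, with a log2 fold change of −1.37. Of all genes tested, 1.19% were upregulated and 2.6% downregulated on day 0, and 6.89% and 8.65% on day 4. On day 0, 13 of the 23 had an unadjusted p under 0.05 by limma, against 4962 of all 15767 genes tested. The log2 fold changes on day 0 and day 4 were −0.22 and 0.12 for Kdm1a, a histone demethylase, 0.08 and 0.35 for Trim28, a corepressor of KRAB zinc finger proteins, and 0.05 and 0.81 for Rif1, a telomere-associated protein. Ctcf itself was at 0.19 on both days. None of these values passed the limit of 1. By adjusted p alone, 2 repressors were higher and 5 lower on day 0 (7.83% and 7.57% of all genes), and 11 were higher and 6 lower on day 4 (21.5% and 18.6%). The 2 higher on day 0 were E2f6, at 0.40 (adjusted p = 0.0367, limma), and Uhrf1, at 0.18 (adjusted p = 0.0287, limma). E2f6 was at −0.47 on day 4. Among those lower was Zmym2, a zinc finger protein of a corepressor complex, at −0.85 on day 0 (adjusted p = 0.00145) and −0.83 on day 4 (adjusted p = 0.000233, limma). Lin28a, an RNA-binding protein, was at −0.83 on day 0 (adjusted p = 0.00145, limma). These genes were picked after their values were seen, from a list of mixed direction.

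Among 18 telomere and recombination genes tested, 1 was upregulated on day 0 and 2 on day 4, against 1.19% and 6.89% of all genes tested, and 0 were downregulated. With so few genes called, these shares are not set apart from those of all genes. Acd, a subunit of the shelterin complex at telomeres, had a log2 fold change of 1.145 on day 0 (adjusted p = 0.00152, limma), a call that was lost without either CTCF-K20R EB library. Tinf2, of the same list, was lower, at −0.89 on day 0 (adjusted p = 0.0041) and −0.87 on day 4 (adjusted p = 0.00118, limma). By adjusted p alone, 4 genes of the list were higher and 2 lower on day 0 (7.83% and 7.57% of all genes). On day 4, 9 were higher and 1 was lower (21.5% and 18.6%). Smc1b, the meiotic cohesin subunit, and Dmc1, the meiotic recombinase, rose on day 4 by 2.67 and 1.22 on the log2 scale. Of 11 other SCAN domain zinc finger genes tested, 0 were upregulated on either day and 1, Zscan22, was downregulated on day 0 at −1.08 (adjusted p = 0.0123, limma), a call lost under 6 of 17 other settings. Of all genes tested, 2.6% were downregulated on day 0. Zscan10, a SCAN domain gene active in mESCs, was at −0.28 and 0.34.

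**Figure D4:**
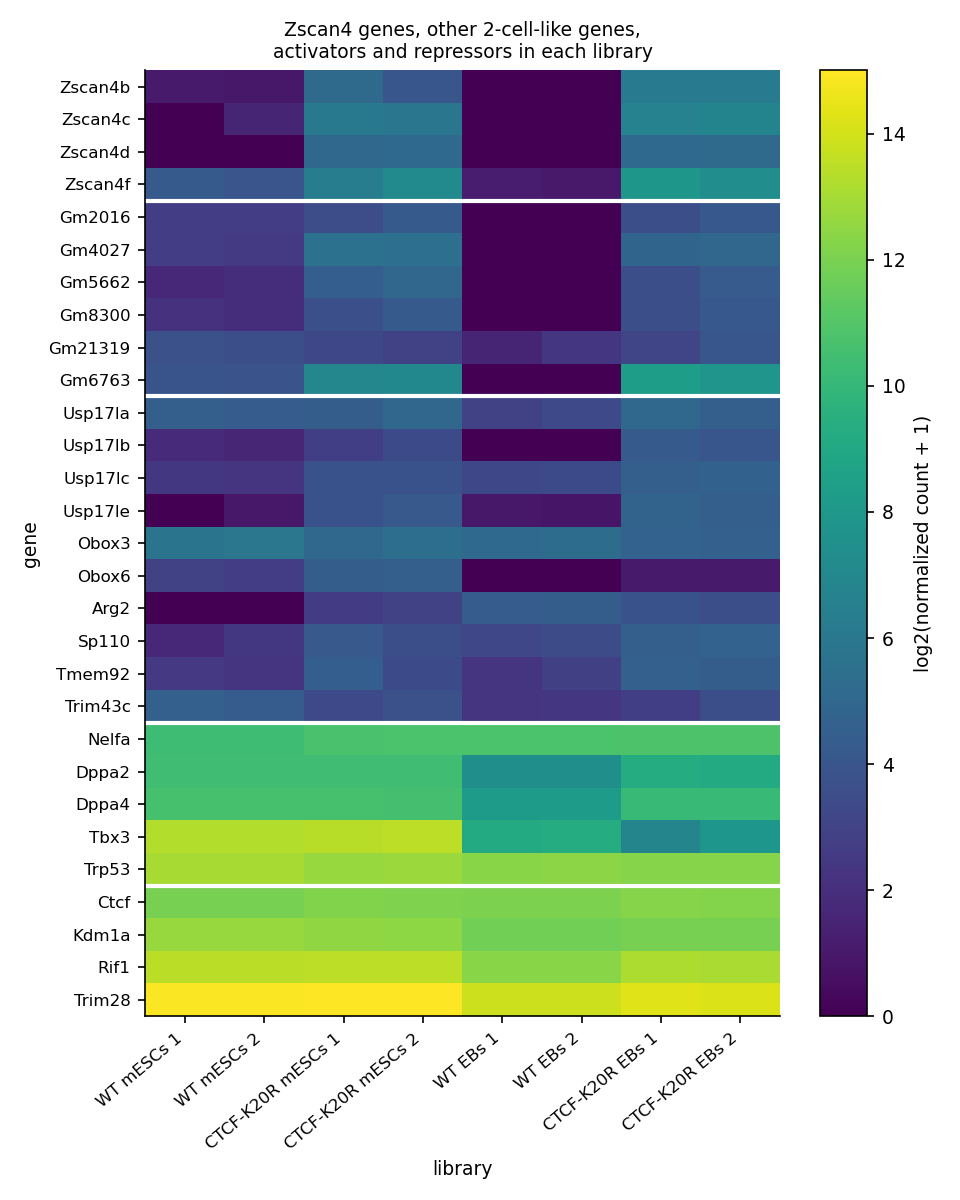
Level of each gene (rows) in each library (columns) as log2(normalized count + 1), with white lines between the Zscan4 genes, the eIF1A-like genes with Gm6763, the other 2-cell-like genes, the activators and the repressors. The WT EB columns are at or near 0 for the Zscan4 genes, for 4 of the 5 eIF1A-like genes and for Gm6763, and the CTCF-K20R columns of both days are brighter than their WT columns in those rows except for Gm21319 on day 0.

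Day 4 of CTCF-K20R differed from WT in much more than this family. Of the 14 mESC markers tested, 0 were called by limma on day 0 (7 with an unadjusted p under 0.05), at a median log2 fold change of −0.02, while 8 were upregulated and 2 downregulated on day 4 (6.89% and 8.65% of all genes tested), at a median of 1.41. The largest rise among them was that of Tcl1, by 3.91. The sum of the 15 markers was 17329 to 17510 normalized counts in WT EBs and 36537 to 37222 in CTCF-K20R EBs, below its level in mESCs. The 8 mesoderm markers tested were all downregulated on day 4, and 5 of 5 endoderm markers tested were too, whereas 2 of 4 neural markers were upregulated. Lhx1, Mesp1, Msgn1, Cer1, Sox17 and Gata6 passed the filter on low values only through their WT EB libraries. The filter thus favours falls, and these counts are a description. The 3 endoderm markers not tested had both CTCF-K20R EB libraries above both WT EB libraries (43.3% of all genes tested), at 5.74 normalized counts or less. The part of these marker shifts in the day 4 Zscan4 level was not tested. 

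The genes whose log2(value + 1) followed that of the Zscan4 sum most closely over the 6 samples were Gm26619 (Pearson r = 0.998), Gm6763 (0.996), Gm10521 (0.996), Bub1 (0.995) and Hook2 (0.995). The measure reads the shape of the pattern and not its size, since Bub1 had log2 fold changes of only 0.54 and 0.91 on day 0 and day 4. Of the 15763 other genes, 168 had an r above 0.95. The 6 samples include the day 4 values that chose the family, so the ranking and this count are a description.

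Distances were counted from Zscan4b and Zscan4f, the outermost of the 4 Zscan4 genes in the table. The 10 tested genes nearest to these, 5 on each side at 405 kb or more, had log2 fold changes of −0.13 to 1.74 on day 0 (median 0.249). On day 4 they were at −0.52 to 1.12 (median 0.163). The nearest were Zik1 before the cluster and Zfp551 after it, both zinc finger genes, and neither was called. The others were Zfp418, Zfp772 and Clcn4-2 before the cluster and Zfp606, Zscan18, Zfp329 and Zfp110 after it, none of which was called either. Gm3912, about 1.02 Mb before Zscan4b, was the 1 gene upregulated, at 1.74 on day 0 (adjusted p = 0.0207) and at 1.12 on day 4 (adjusted p = 0.0346, limma with Benjamini-Hochberg adjustment). Of all genes tested, 1.19% and 6.89% were upregulated on these days. The TGATT pattern occurred in the promoters of 66 genes, and of these 13 were tested, among them the 4 Zscan4 genes. Of the other 9, limma called 0 on either day, with 0 at an unadjusted p under 0.05 on day 0 and 4 on day 4. Over all 15767 genes tested, 4962 and 7847 had such a p. The shares of all genes upregulated and downregulated were 1.19% and 2.6% on day 0 and 6.89% and 8.65% on day 4.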

How the data were processed

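RNA-seq values of 8 libraries were used, covering both genotypes and both days, 2 for each genotype and day. According to the methods of the study and the labels, the authors trimmed the reads with Trim Galore, quantified them on mm10 transcripts with Salmon, summed transcripts to genes and normalized with DESeq2. What the authors deposited is a signal for every gene, the normalized count, in which a factor for each gene and library hides the whole reads, so no count model was used. The annotation release and the use of strand were not given in the sources used here.

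All 8 value columns matched a sample by name. Genes with a mean of at least 10 were tested on the scale log2(value + 1) by limma 3.58.1 under R 4.3.3 (lmFit, eBayes with trend, 2 residual and 3.51 prior degrees of freedom), with Benjamini-Hochberg adjustment over 15767 genes. A DEG needed a log2 fold change beyond 1 in either direction with an adjusted p below 0.05. Contrasts were CTCF-K20R against WT on each day and their difference. The fit was run on simulated data in which no gene at the low WT levels of the Zscan4 genes was changed, so that run says nothing about calls at those levels. The WT pairs, closer than sampling noise allows, entered as means, which leaves 6 samples. The labels call the libraries replicates, and p-values measure only the spread between them. Same-numbered samples did not deviate together (correlations −0.031 to 0.03), so the main fit has no replicate block.

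A limit of 3 reads was set from the step of low values. Transcripts of GENCODE vM21 were split into 31-base words with Python 3.11.15, and identities were computed with Biopython 1.88. Promoter sequences are those of RefSeq. Members and gene lists were chosen with earlier results of these data known. Named are all members, up to 4 called genes of each list with the largest rise or fall on each day, 9 genes of known role, the 5 genes most alike and the 10 nearest. Genes outside this rule that are named (Obox3, Trim43c, Usp17lc, Sp110, Tmem92, Gm21319, Zmym2, Lin28a, E2f6, Uhrf1, Tinf2) were chosen after their values were seen. Alternatives were another pseudocount, filter, scaling, sample set and variance model, and leaving out each library.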

Additional observations from a re-analysis of the deposited data

Results flagged for a closer look

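The effect of CTCF-K20R differed between day 0 and day 4 for the named genes listed below, none of which is a Zscan4 gene. The interaction term of limma gave each of them an adjusted p under 0.05 over all genes. Most of these genes were named because they were called on day 0 or on day 4, which favours such a difference. The list is therefore a description, and no share over all genes stands beside it. The value is the log2 fold change on day 4 minus that on day 0. It was 5.04 for Gm6763 (3.08 on day 0, 8.13 on day 4). Among the activators the values were 1.79 for Dppa2, 1.89 for Dppa4, −2.05 for Tbx3 and −0.29 for Nelfa. Among the repressors they were 0.76 for Rif1, 0.34 for Kdm1a and 0.27 for Trim28. Smc1b had 1.72 and Zscan10 had 0.62.

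Among the mESC markers, the values were 3.09 for Tcl1, 3.06 for Nr0b1, 2.73 for Esrrb, 1.69 for Klf2 and −1.16 for Klf4. The mesoderm markers had −12.14 (Lhx1), −11.01 (Mesp1), −8.75 (Msgn1), −6.95 (Pdgfra) and −3.79 (T). The endoderm markers had −8.63 (Cer1), −7.89 (Gata6) and −5.10 (Sox17), and the neural markers 4.00 (Sox1) and 3.38 (Pax6). Of the fibroblast markers, Thy1 had 3.44, Postn −5.72 and Prrx1 −2.69. The Zscan4 genes were not tested in this way, because the day 4 contrast chose them. With 2 libraries a group, no search for a library far from the others of its group was possible.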

How the results depend on the processing

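The 4 Zscan4 calls of day 0 kept their direction under every alternative run. The count of 4 fell to 2 with genes of any value above 0, to 1 with a mean of at least 50 (which kept Zscan4f alone in the test), to 2 with the day 0 libraries alone and to 2 with eBayes without trend. Leaving out 1 library gave 0 to 4 calls, with 2 without CTCF-K20R mESC replicate 1 and 0 without either CTCF-K20R EB library. Zscan4c and Zscan4d kept the call in 14 of 16 alternatives, Zscan4b in 10 of 16 and Zscan4f in 10 of 17, with adjusted p up to 0.0589, 0.0589, 0.104 and 0.108. With a replicate block, which does not rest on a pairing in the labels, all 4 stayed called (adjusted p of 0.00304 to 0.0233), with limma.

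On day 0, 188 genes were upregulated and 410 downregulated. The counts were 445 and 903 with all 8 libraries as separate samples, 54 and 92 with the day 0 libraries alone, 23 and 33 without trend, and 1235 and 1194 by adjusted p alone. Leaving out 1 library gave 0 to 200 upregulated and 0 to 415 downregulated genes. On day 4, the 1087 upregulated and 1364 downregulated genes became 3395 and 2934 by adjusted p alone, and 721 to 1107 and 869 to 1367 without 1 library, the lowest without CTCF-K20R EB replicate 1. The log2 differences of day 4 moved with the pseudocount, as given above, and that of Zscan4f moved to 7.07 after quantile normalization. Uncalled day 0 values that changed sign were those of Rif1 (−0.0181 after quantile normalization) and Foxa2 (−0.792 at a pseudocount of 0.1) and, with 1 library left out, Dppa4 (−0.0769 to 0.0163), Usp17la (−0.0534 to 0.463), Pdgfra (−0.0343 to 0.451) and Foxa2 (−1.49 to 2.21). The cause was not tested. No Zscan4 pseudogene had a row, so the sum with pseudogenes was not run. Depth limits WT Zscan4b, Zscan4c and Zscan4d, which are under 3 reads in every WT library.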

Other observations

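Among the mESC markers, Esrrb, Klf2 and Nr0b1 were upregulated on day 4 with log2 fold changes of 2.65, 2.53 and 2.44, and Klf4 was downregulated (−1.48). In mesoderm, Lhx1, Msgn1, Mesp1 and Pdgfra were at −10.98, −9.79, −9.32 and −6.74, and T, the one mesoderm gene called on day 0 (−1.53), was at −5.33. In endoderm, Cer1, Sox17, Gata6 and Foxa2 were at −9.72, −7.30, −7.21 and −4.91. The neural genes Sox1 and Pax6 rose by 4.17 and 2.61. Of the fibroblast markers, Thy1 was downregulated on day 0 (−2.14), Thy1 and Col3a1 were upregulated on day 4 (1.30 and 3.00), and Postn and Prrx1 were downregulated on day 4 (−5.72 and −3.18). All are limma log2 fold changes with an adjusted p under 0.05. The call of Col3a1 was lost under 9 of 16 alternatives. On day 4 the call of Foxa2 was lost under 5 alternatives and that of Pax6 under 1. The day 0 calls of T and Thy1 were each lost under 3. Lhx1, Mesp1, Msgn1, Cer1, Sox17, Gata6, Postn and Prrx1 passed the filter on low values only through their WT EB libraries, and Col3a1 only through its CTCF-K20R EB libraries.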
